A study of Mus musculus with 2 samples.

Results

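Gm597 (ENSMUSG00000048411), Dkk2 (ENSMUSG00000028031) and Pknox2 (ENSMUSG00000035934) are 3 of the 33,696 genes counted in single nuclei of the mouse hippocampus. They were picked because almost no transcript of theirs was counted in control oligodendrocytes and many were counted in oligodendrocytes of the labelled knockout library. Their ratio between the libraries in that cell type therefore chose them, and it is given below as a description. Nuclei were taken on postnatal day 19 from 2 groups of littermates. Both groups had 2 floxed copies of Cic, the gene of the repressor Capicua. The control group was Cicflox/flox and the other was Emx1-Cre; Cicflox/flox, and Emx1-Cre is known to act in the dorsal telencephalic lineage, which gives excitatory neurons and glia of the cortex and hippocampus. Each group gave 1 library, a pool of the tissue of 3 mice (2 males and 1 female) that each gave 1 hippocampus.

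With 1 library per group no difference has a replicate error, and no test was run. All intervals are 95% intervals for counting error alone, and the mice, the nuclei preparation and the library cannot be told apart from the genotype. The control library held 21,783 usable nuclei with a median of 9786 transcript counts (unique molecular identifiers, UMIs), and the other held 20,569 with a median of 8765. The 2 libraries had 175 cell barcodes in common. Transcripts of Cic itself were not fewer in the labelled knockout library. In oligodendrocyte-like nuclei 215 Cic UMIs in the control faced 298, a log2 ratio of 0.72 (0.46 to 0.98). Most of these nuclei lay in different clusters in each library, and within them Cic was at 17.4 and 25.1 UMIs per 1000000 (CPM) in cluster 10 and at 34.0 and 37.7 CPM in cluster 13. In committed precursor-like nuclei the log2 ratio was 0.47 (-0.07 to 1.02), and in precursor-like nuclei it was 0.08 (-0.37 to 0.53). A count over the whole gene does not show whether the floxed exons were present, so the group is called by its label throughout.

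Oligodendrocytes, the myelin-forming cells of the central nervous system, arise from dividing precursors through a committed, premyelinating stage. Pknox2 encodes a homeodomain protein of the TALE class, a family of transcription factors that bind DNA with PBX partners. Dkk2 encodes a secreted protein of the Dickkopf family, which binds the LRP5 and LRP6 co-receptors of Wnt signalling. Gm597 carries the symbol of a predicted mouse gene. Capicua is known to repress Etv1, Etv4, Etv5 and genes of the Sprouty and Spred families, and it binds octamers such as TGAATGAA.

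Stretches of DNA before the annotated start are shown for Gm597 and Dkk2, because both genes went from almost no counts to many, and the letters known to be bound by Capicua can be looked for there. RefSeq's table for GRCm38.p6 held an entry for 2 of the 3 genes, with none for Pknox2. The Gm597 stretch is chr1:28780253-28780502 on the minus strand. The Dkk2 stretch is chr3:132085042-132085265 on the plus strand and ends before the annotated gene. Both are 5′ to 3′ on the gene's strand, with the matches to the searched letters in capitals.
Gm597: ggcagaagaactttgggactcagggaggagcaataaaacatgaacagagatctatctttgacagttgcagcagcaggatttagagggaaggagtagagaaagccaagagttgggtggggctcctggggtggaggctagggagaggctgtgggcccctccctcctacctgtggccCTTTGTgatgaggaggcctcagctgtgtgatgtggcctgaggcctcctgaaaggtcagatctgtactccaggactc
Dkk2: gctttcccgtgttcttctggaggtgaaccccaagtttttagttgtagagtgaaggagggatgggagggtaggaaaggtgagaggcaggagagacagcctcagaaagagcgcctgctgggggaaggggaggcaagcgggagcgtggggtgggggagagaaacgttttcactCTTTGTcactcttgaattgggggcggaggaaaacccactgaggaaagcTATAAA
The search covered both strands of each whole 300-base window, of which the stretches above are the part before the gene. It looked for 3 Capicua octamers (TGAATGAA, TGAATGGA and TCAATGAA), for TATAAA, and for ACAAAG, the core letters of sites for TCF and LEF factors. The motifs did not overlap each other in either window. The window of Gm597 held ACAAAG once, on the opposite strand, 76 bases before the start. The window of Dkk2 held the same letters on the opposite strand and TATAAA, 80 and 32 bases before the start set by the window. For Dkk2 that start lies inside the annotated gene, and TATAAA ends directly before the annotated gene. Neither window held any of the 3 octamers. Among all 32,851 windows of this length, ACAAAG stood in 18.7% and TATAAA in 13.6%. TGAATGAA stood in 1.30%, TGAATGGA in 1.21% and TCAATGAA in 0.749%.

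Nuclei were grouped into classes by clustering without the 3 genes, so that no class rests on them. The oligodendrocyte-like class held 1184 control nuclei and 943 of the labelled knockout library, with a median of 8120 and 8498 UMIs. Its 8 markers of mature oligodendrocytes, among them the myelin genes Mog, Mag and Mobp, summed to 11,442 CPM in the control and 10,849 in the other library. Precursor markers were at 133.4 and 115.5 CPM in these nuclei. The label of the cell type thus holds in both libraries. Of 22 marker lists, 1 was at least 2-fold higher in the labelled knockout library, that of CA1 pyramidal cells, with 1151 and 3405 CPM. Almost all of that sum was Pex5l, at 1110 and 3365 CPM. Different clusters held most of the class in each library. Cluster 10 had 959 control nuclei and 218 of the other library, and cluster 13 had 225 and 725.

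In oligodendrocyte-like nuclei all 3 genes went from near absence to clear counts. Gm597 had 1 UMI in the control and 698 in the labelled knockout library, or 0.10 and 83.4 CPM. Dkk2 had 3 and 843 UMIs, or 0.301 and 100.8 CPM. Pknox2 had 17 and 3627 UMIs, or 1.71 and 433.6 CPM. Within cluster 13, Gm597 had 0 and 694 UMIs, Dkk2 had 1 and 841, and Pknox2 had 7 and 3604. Within cluster 10 they had 1 and 4, 2 and 2, and 10 and 23 UMIs in the same order, from 959 and 218 nuclei. In CPM these were 0.134 and 2.86, 0.268 and 1.43, and 1.34 and 16.5. Over the whole class the log2 ratio was 9.11 (7.22 to 15.00) for Gm597, 8.16 (6.83 to 10.67) for Dkk2 and 7.95 (7.31 to 8.77) for Pknox2. All 3 therefore lay past the 2-fold limit that 2.16% of the 8095 genes with enough counts passed in this direction, which the choice of the genes fixes. Only genes that reached 50 UMIs and 10 CPM in whichever library was higher were counted. Pknox2 was the lowest of the 3 by ratio. The gene just outside was Col5a2, a fibrillar collagen chain, with 10 and 802 UMIs (log2 ratio 6.51, 5.69 to 7.64). After it came the long non-coding 9630014M24Rik (7 and 455 UMIs, 6.18), the adaptor gene Shc3 (16 and 896, 6.02), Oca2 (7 and 319, 5.66) and Etv5 (12 and 409, 5.29). Of the 175 genes past the limit upward, 5 had at most 10 control UMIs.

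The share of nuclei with a UMI moved with the counts. A Pknox2 UMI was present in 1.27% (0.711 to 2.08, exact Clopper-Pearson interval) of control oligodendrocyte-like nuclei and in 66.6% (63.5 to 69.6) of those of the labelled knockout library. For Gm597 the shares were 0.0845% (0.00214 to 0.470) and 28.2% (25.4 to 31.2). For Dkk2 they were 0.253% (0.0523 to 0.739) and 14.5% (12.3 to 16.9). With every nucleus thinned to 2000 UMIs, the shares in the labelled knockout library were 43.8% for Pknox2, 11.1% for Gm597 and 8.90% for Dkk2. The thinned control shares were 0.340%, 0% and 0.0849%, after 6 control and 10 labelled knockout nuclei with fewer UMIs were left out. The ratios of Pknox2 and Dkk2 were lower with called doublets kept and the clustering repeated, changes whose parts were not separated. The log2 ratio in the oligodendrocyte-like class was then 2.37 for Pknox2, 4.27 for Dkk2 and 8.87 for Gm597.

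The genes differed in where along the lineage the libraries parted. Pknox2 was already counted in precursors of both libraries. In precursor-like nuclei it had 1623 UMIs in 1076 control nuclei and 1520 in 1186 nuclei of the labelled knockout library, or 277.6 and 268.5 CPM. The log2 ratio there was -0.05 (-0.15 to 0.05), where 0.147% of 9505 genes lay at least 2-fold higher. In committed precursor-like nuclei it had 365 UMIs in 468 control nuclei and 2467 in 475 of the other library, or 106.2 and 787.9 CPM. That is a log2 ratio of 2.89 (2.73 to 3.05), in a class where 1.11% of 7561 genes were at least 2-fold higher. Gm597 had 0 and 3 UMIs in precursor-like nuclei and 0 and 1 in committed precursor-like nuclei. Dkk2 had 11 and 10 UMIs in precursor-like nuclei and 2 and 0 in committed precursor-like nuclei. The control level of Pknox2 thus went down from class to class, while in the other library it was highest in the middle class. The counts of Gm597 and Dkk2 stayed near the floor until the last class.

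**Figure D1:**
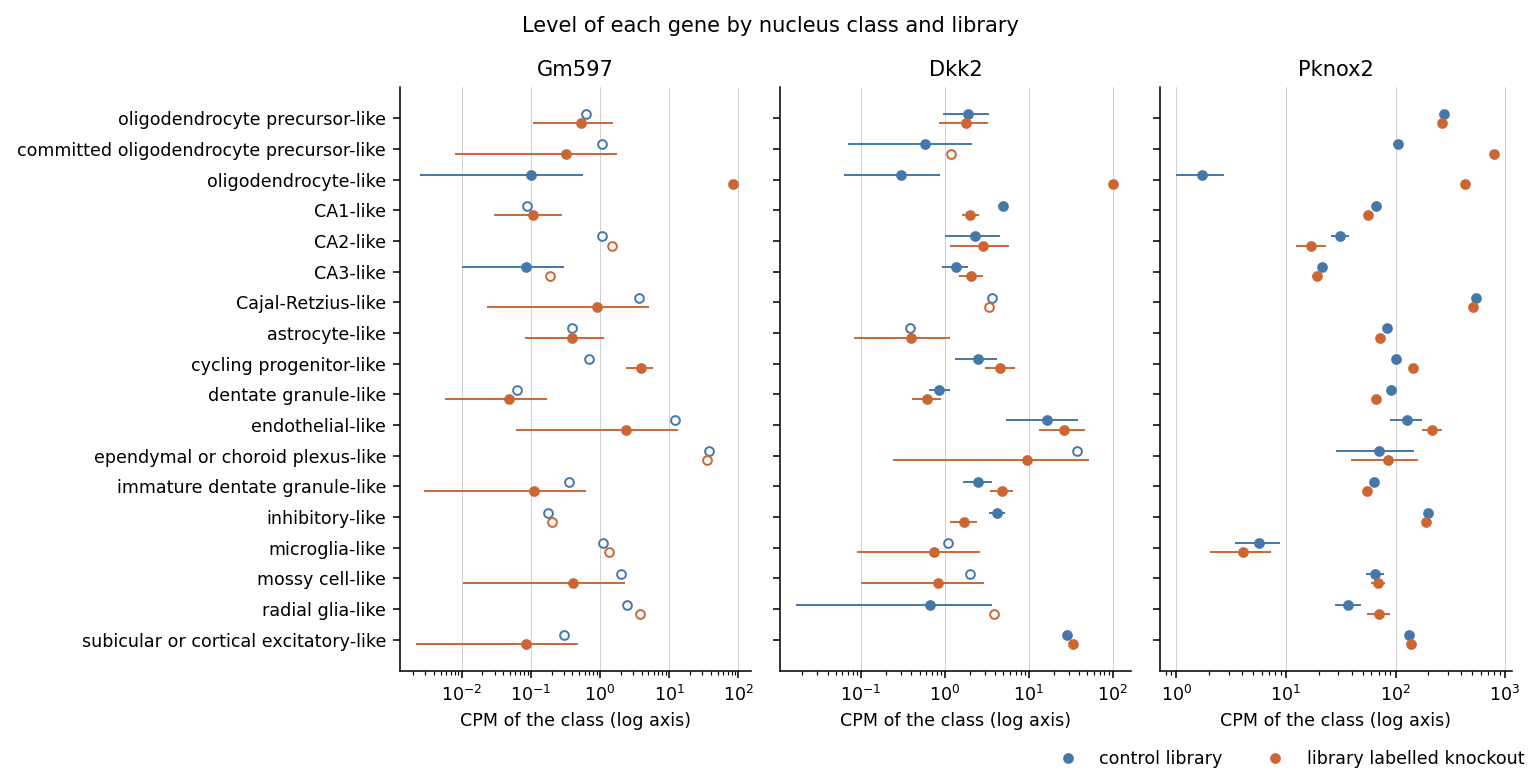
Level of Gm597, Dkk2 and Pknox2 in CPM on a log axis, by nucleus class, in the control library (blue) and the labelled knockout library (orange). Filled points are sums with exact Poisson 95% intervals, open points are sums of 0 UMIs drawn at the upper bound of their interval, and the 2 libraries stand apart by more than 100-fold only in oligodendrocyte-like nuclei.

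To order nuclei more finely, the 5332 nuclei of the 3 lineage classes were ranked by a score, the mean level of 8 mature markers minus that of 6 precursor markers, and divided into 10 bins of equal size over both libraries. A bin is a range of the score and not a cell type, and 60.9% of the nuclei lay within 0.1 score units of a bound. The stage markers ran in parallel in both libraries. Committed precursor markers, which do not enter the score, peaked in bin 6, at 10,624 CPM in the control and 9124 in the other library. Mature markers reached 8797 and 8354 CPM in bin 7, where committed precursor markers were at 3486 and 2401 CPM.

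In the control, Pknox2 was at 289.7 CPM in bin 1, 283.1 in bin 2, 275.1 in bin 3 and 268.0 in bin 4. It was at 207.1 CPM in bin 5, 54.1 in bin 6, 4.27 in bin 7 and 1.32 in bin 8, with 0 UMIs in bin 9 and 2.04 CPM in bin 10. In the labelled knockout library bins 1 to 3 lay between 261.1 and 268.9 CPM, close to the control. The level was then 346.9 CPM in bin 4, 464.1 in bin 5 and 945.7 in bin 6, and it was lower again in bins 7 to 10, at 625.9, 400.9, 352.6 and 348.9 CPM. The first bin whose ratio interval lay wholly above 0 was bin 4, with a log2 ratio of 0.37 (0.17 to 0.58). Committed precursor-like nuclei made up 22 of its 251 control nuclei and 35 of its 282 nuclei of the labelled knockout library. The part of this unequal mix in the ratio was not tested. In bin 5 the log2 ratio was 1.16 (0.96 to 1.37), in bin 6 it was 4.12 (3.86 to 4.41) and in bin 7 it was 7.12 (6.31 to 8.26). The control level thus went down over bins 5 to 7, where the level of the labelled knockout library stayed above that of its own bins 1 to 3.

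Gm597 had 0 UMIs in 9 of the 10 control bins and 1 UMI in bin 8. In the labelled knockout library its UMIs were 2, 0, 0, 1, 1 and 3 over bins 1 to 6, then 90, 220, 206 and 179 over bins 7 to 10. Its level was 42.7 CPM in bin 7, 99.3 in bin 8, 90.6 in bin 9 and 100.9 in bin 10. The counts began in the first bin made up almost wholly of oligodendrocyte-like nuclei.

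Dkk2 had between 0 and 5 UMIs in every control bin, 16 in all. In the labelled knockout library its UMIs were 1, 2, 1, 5, 1 and 0 over bins 1 to 6 and 136, 191, 364 and 152 over bins 7 to 10. Its level was 64.6 CPM in bin 7, 86.2 in bin 8, 160.0 in bin 9 and 85.7 in bin 10. Both genes therefore had few UMIs up to the bin where Pknox2 peaked and many from the next bin on. Of the lineage UMIs in the labelled knockout library, the upper 5 bins held 99.4% (98.5 to 99.8) for Gm597, 98.8% (97.9 to 99.4) for Dkk2 and 70.8% (69.8 to 71.8) for Pknox2. In the control they held 6.78% (5.72 to 7.97) of the Pknox2 UMIs. With Ermn and Hapln2 left out of the score, the shares in the labelled knockout library were 99.4% for Gm597, 98.8% for Dkk2 and 70.9% for Pknox2.

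**Figure D2:**
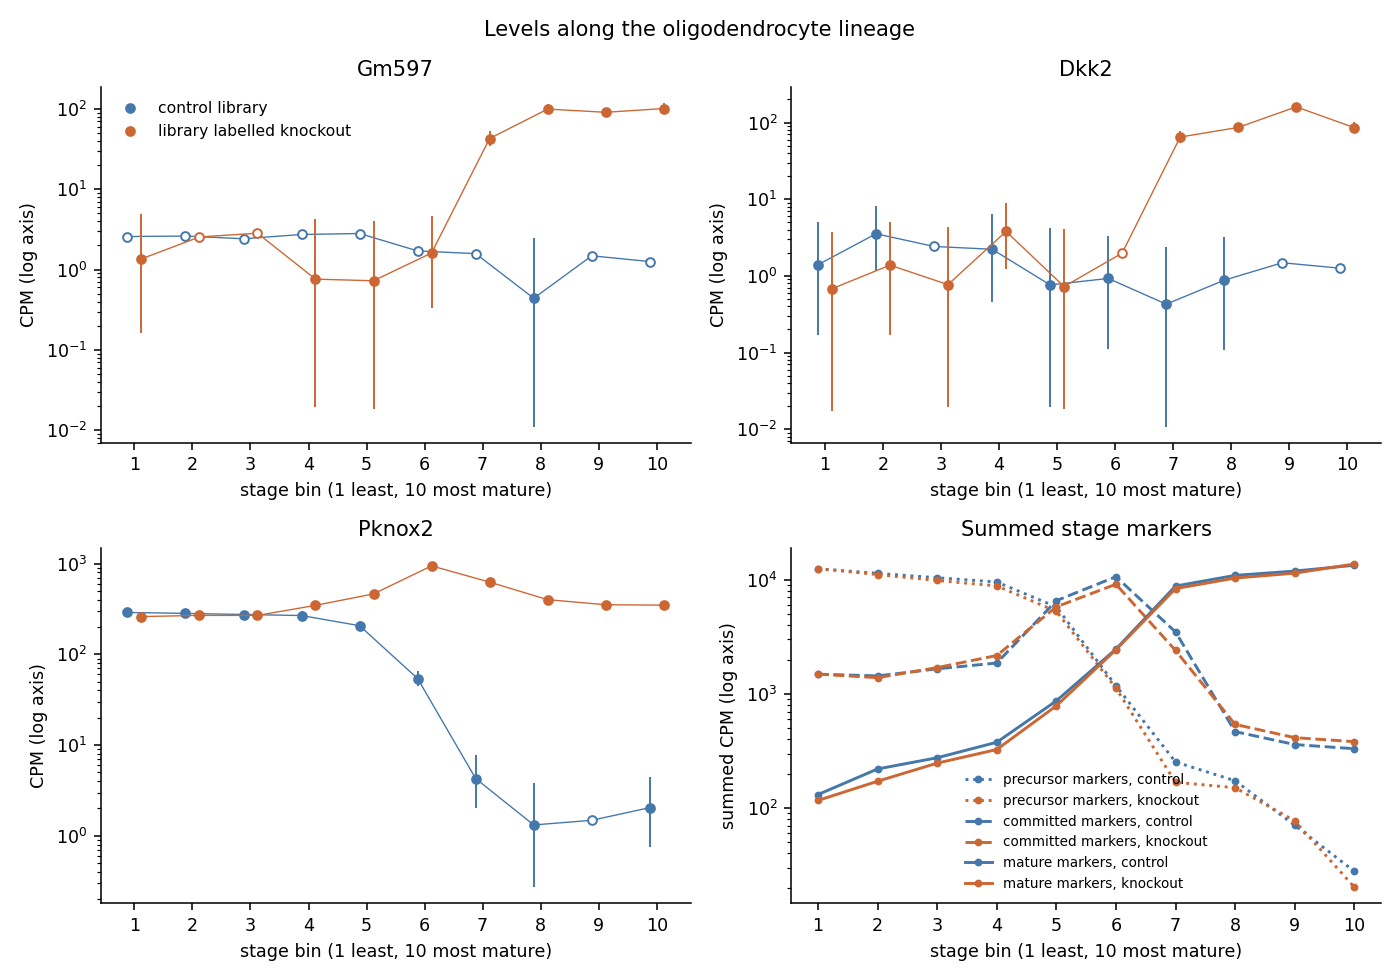
Level of Gm597, Dkk2 and Pknox2 in CPM (log axes) over 10 bins of the stage score, and in the last panel the summed level of precursor, committed and mature markers, for the control library (blue) and the labelled knockout library (orange). Points carry exact Poisson 95% intervals and open points are 0 UMIs drawn at the upper bound, and Pknox2 peaks at 945.7 CPM in bin 6 of the labelled knockout library while Gm597 and Dkk2 have at most 5 UMIs per bin up to bin 6 and at least 90 in bins 7 to 10.

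The lineage nuclei were also divided into 12 sub-clusters, numbered by their mean score, from a clustering that used neither the 3 genes nor any gene at least 2-fold apart in the lineage classes. Of the oligodendrocyte-like nuclei, sub-cluster 9 held 134 control nuclei and 161 of the labelled knockout library. Sub-cluster 10 held 7 and 507, sub-cluster 11 held 643 and 150, and sub-cluster 12 held 322 and 58. In the labelled knockout library, Pknox2 was at 605.7 CPM in sub-cluster 9 and at 448.5 in sub-cluster 10, but at 6.83 CPM in sub-cluster 11 and 16.7 in sub-cluster 12. Gm597 was at 34.1 and 135.1 CPM in sub-clusters 9 and 10, with 1 and 3 UMIs in sub-clusters 11 and 12. Dkk2 was at 89.0 and 148.6 CPM, with 0 and 4 UMIs in sub-clusters 11 and 12. Control nuclei of sub-clusters 11 and 12 had 1.40 and 0.915 CPM of Pknox2, log2 ratios of 2.29 (0.39 to 4.19) and 4.05 (2.13 to 6.74). They had 1 and 0 Gm597 UMIs and 2 and 0 Dkk2 UMIs. In the labelled knockout library the 3 genes were thus counted in sub-clusters 9 and 10 and were low in sub-clusters 11 and 12, where Pknox2 was still above the control. Counts per gene do not show which of these nuclei carry a recombined Cic allele, and the shares and levels given for the class are over all of them. A further 18 of its oligodendrocyte-like nuclei were in sub-cluster 7 and 49 in sub-cluster 8. Mature markers summed to 10,983 CPM in sub-cluster 10 and 12,953 in sub-cluster 11 of that library.

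Known Capicua targets that were at least 2-fold higher over the whole class differed in size between these sub-clusters of that library. They were picked by that rise, and sub-cluster 10 holds most of the class's nuclei in that library. A higher level there thus follows in part from the choice. Shc3 was at 129.7 CPM in sub-cluster 10 and 6.83 in sub-cluster 11, Etv5 at 71.4 and 10.2, Spred3 at 49.4 and 10.2, and Etv4 at 42.0 and 11.4. Smaller differences were seen for Etv1 (138.8 and 63.7 CPM), Spred1 (146.2 and 88.7) and Spred2 (19.1 and 10.2). In sub-cluster 9 Etv1 was at 68.2 CPM and Spred2 at 3.47, so these 2 were not set apart from sub-cluster 11 there. Control nuclei of sub-cluster 11 had 1.16 CPM of Shc3, 1.63 of Etv5, 1.16 of Etv4 and 3.26 of Spred3, and 39.8 of Etv1, 60.7 of Spred1 and 10.2 of Spred2, the last as in the other library. Cic was at 35.7 CPM in sub-cluster 10 and 21.6 in sub-cluster 11 of the labelled knockout library. Sub-cluster 8 lay earlier in the order, with 94 and 89 nuclei, and held both committed precursor-like and oligodendrocyte-like nuclei. There Pknox2 was at 12.3 CPM in the control and 1018 in the labelled knockout library, a log2 ratio of 6.31 (5.55 to 7.32), while Gm597 had 0 and 1 UMI and Dkk2 had 0 and 0. In sub-clusters 5, 6 and 7, before it, the log2 ratio of Pknox2 was 3.60 (3.21 to 4.04), 4.97 (4.51 to 5.51) and 2.71 (2.07 to 3.51). Sub-cluster 7, with 31 and 52 nuclei of all 3 classes, also had 0 and 13 Gm597 UMIs, from 6 nuclei, so Gm597 did not follow the order of the sub-clusters without exception.

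**Figure D3:**
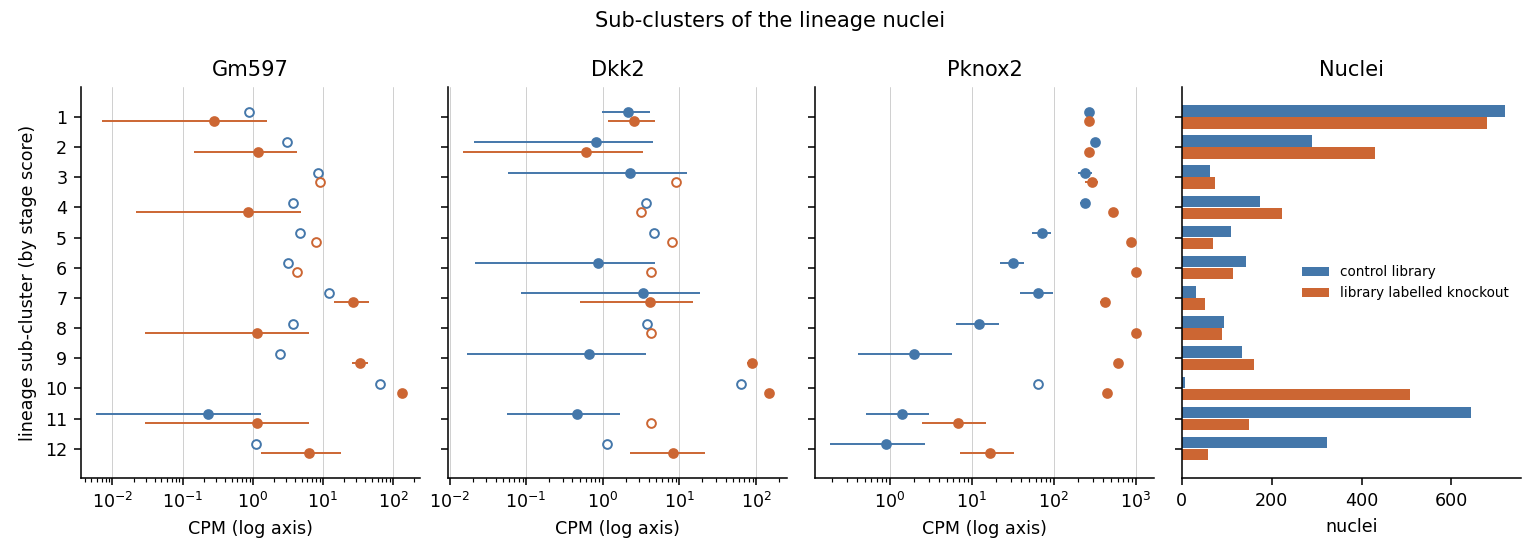
Level of Gm597, Dkk2 and Pknox2 in CPM (log axes) in 12 sub-clusters of the lineage nuclei, numbered from the least to the most mature mean score, and the number of nuclei of each sub-cluster, for the control library (blue) and the labelled knockout library (orange). Filled points have exact Poisson 95% intervals and open points are 0 UMIs at the upper bound, and sub-cluster 10, with 7 control and 507 labelled knockout nuclei, holds the highest levels of Gm597 and Dkk2.

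Single nuclei showed how unevenly the transcripts were spread. Of the 943 oligodendrocyte-like nuclei of the labelled knockout library, 278 (29.5%) had a UMI of none of the 3 genes, 349 (37.0%) of 1, 266 (28.2%) of 2 and 50 (5.30%) of all 3. Of the 278 nuclei with none, 202 were in cluster 10, where they made up 92.7% of the nuclei, against 10.5% in cluster 13. The shares that follow are over both clusters. In the control 1165 of 1184 nuclei (98.4%) had none and 19 (1.60%) had 1. Dkk2 was the most concentrated: the 95 nuclei with most UMIs held 94.3% of its UMIs, and 1 nucleus held 36. The top 95 nuclei for each of the others held 63.0% of the Gm597 UMIs, with a maximum of 15 in a nucleus, and 39.8% of the Pknox2 UMIs, with a maximum of 37. Where Dkk2 was detected the median was 4 UMIs, as for Pknox2, against 2 for Gm597.

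Detection of one gene went with detection of the others, and so did depth and cluster. A Pknox2 UMI was found in 90.6% of 266 nuclei with a Gm597 UMI and in 57.2% of 677 without one. Their median depths were 9695.5 and 8123 UMIs. After thinning to 2000 UMIs, the shares with a Pknox2 UMI among these nuclei were 55.3% and 39.3%. A Dkk2 UMI was found in 21.1% of nuclei with a Gm597 UMI and in 12% without one, or 12.4% and 7.50% after thinning. These shares mix 2 unlike clusters. In cluster 13, UMIs of Gm597, Dkk2 and Pknox2 were found in 262, 135 and 615 of 725 nuclei. In cluster 10 they were found in 4, 2 and 13 of 218. The parts of depth and cluster in these shares were not tested further.

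**Figure D4:**
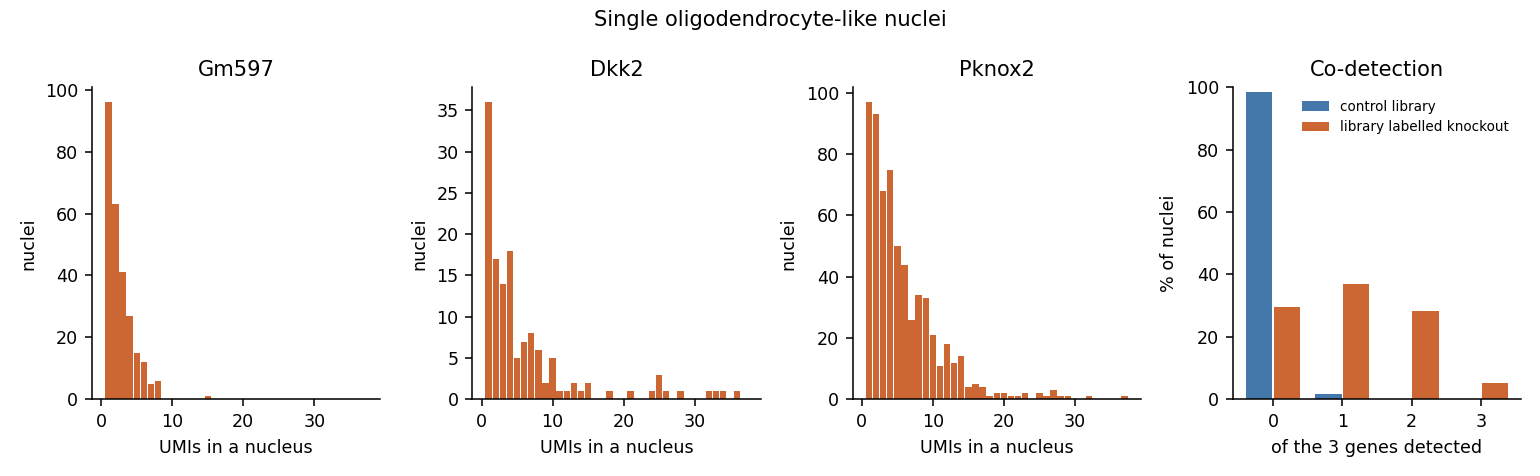
Number of oligodendrocyte-like nuclei of the labelled knockout library by their UMIs of Gm597, Dkk2 and Pknox2 (nuclei with 0 UMIs not drawn), and the percentage of nuclei with 0 to 3 of the genes detected in each library. Dkk2 reaches 36 UMIs in a nucleus although 14.5% of nuclei have any, and 98.4% of control nuclei have none of the 3 genes.

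The sex of a nucleus, called from Xist and Y-linked transcripts, divides the called nuclei of each pool into those of 1 female and 2 male mice. In the control 330 female and 603 male nuclei were called among the 1184 oligodendrocyte-like nuclei. In the labelled knockout library 292 and 464 were called among 943, and the rest are in neither part. In female oligodendrocyte-like nuclei, Gm597 had 1 UMI in the control and 225 in the labelled knockout library, Dkk2 had 1 and 179, and Pknox2 had 7 and 1449. In male nuclei Gm597 had 0 and 331, Dkk2 had 1 and 495, and Pknox2 had 8 and 1645. The gain was thus counted in called nuclei of both sexes, which are parts of the same counts that chose the genes. Female log2 ratios were 7.09 (5.18 to 12.98) for Gm597, 6.76 (4.85 to 12.66) for Dkk2 and 7.45 (6.51 to 8.87) for Pknox2. In male nuclei they were 8.81 (6.91 to 14.70) for Dkk2 and 8.04 (7.14 to 9.34) for Pknox2. With the control set to its floor of 3 UMIs for the class, Gm597 was at least 149.6-fold higher there, and the counting interval of the ratio began at 121.0-fold. In committed precursor-like nuclei the log2 ratio of Pknox2 was 3.59 (3.28 to 3.93) in female and 2.64 (2.42 to 2.87) in male nuclei. The control levels behind this were 74.4 and 124.5 CPM. The difference between the sexes was not tested.

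Outside the oligodendrocyte lineage the 3 genes had distinct patterns. Gm597 had between 0 and 4 UMIs in every other named class of either library, except in cycling progenitor-like nuclei of the labelled knockout library, with 21 UMIs against 0. With the control at the floor of 3 UMIs for the class, that is at least 6.78-fold higher, and the counting interval of the ratio began at 5.04-fold. Of these, 18 came from 14 of the 86 nuclei in cluster 31, a deep cluster with a median of 46,603 UMIs. Its 81 control nuclei had none. Mature oligodendrocyte markers summed to 573.4 CPM in the control nuclei of cluster 31 and 812.8 CPM in the others, beside 39.4 and 47.8 CPM for cycling markers. Cluster 31 was mixed, with CA1 markers at 2970 and 2473 CPM, inhibitory markers at 1175 and 1594 and astrocyte markers at 967.2 and 918.0. In cluster 16, of the same class, cycling markers were at 832.7 and 1031 CPM. The part of these markers in the Gm597 count was not tested.

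Dkk2 had its highest control level among named classes in subicular or cortical excitatory-like nuclei, followed by endothelial-like nuclei at 16.6 CPM, which rests on 5 UMIs (11 UMIs and 26.3 CPM in the other library). In subicular or cortical excitatory-like nuclei it had 344 and 394 UMIs, or 28.5 and 33.7 CPM, a log2 ratio of 0.24 (0.03 to 0.45). It was lower in the labelled knockout library in CA1-like nuclei, with 205 and 74 UMIs (log2 ratio -1.30, -1.71 to -0.91), and in inhibitory-like nuclei, with 88 and 31 UMIs (-1.32, -1.98 to -0.73). The latter UMIs came from 32 and 20 nuclei. Inhibitory-like nuclei are outside the Emx1 lineage, and the source of the difference was not tested. Most CA1-like nuclei lay in different clusters in each library, cluster 8 with 1328 control nuclei and 7 of the other library, and cluster 7 with 326 and 1406. Of the 205 control UMIs 150 came from cluster 8. Within cluster 7 Dkk2 had 25 and 25 UMIs, or 4.13 and 1.10 CPM (-1.92, -2.78 to -1.06), and within cluster 17 it had 29 and 43 (0.45, -0.25 to 1.19). In immature dentate granule-like nuclei it had 26 and 43 UMIs (0.93, 0.21 to 1.70). In cycling progenitor-like nuclei it had 13 and 25 (0.87, -0.12 to 1.99), of which 12 and 25 came from cluster 31. The level in oligodendrocyte-like nuclei of the labelled knockout library, 100.8 CPM, was above that of every other named class in either library.

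Pknox2 was widely counted. Its control level was highest in Cajal-Retzius-like nuclei, at 543.6 CPM (510.5 in the labelled knockout library), then in precursor-like nuclei, and then in inhibitory-like nuclei, at 196.9 CPM (189.2). Subicular or cortical excitatory-like nuclei followed at 133.5 CPM (138.6) and endothelial-like nuclei at 126.2 CPM (214.9). The intervals of the last 2 control levels overlapped, since the endothelial value rests on 38 UMIs. Dentate granule-like nuclei had 90.2 CPM (66.9), with a log2 ratio of -0.43 (-0.50 to -0.36), and CA1-like nuclei 65.7 CPM (55.8), with -0.24 (-0.32 to -0.15). Dentate granule-like nuclei also lay mostly in different clusters, cluster 1 with 4287 control nuclei and 57 of the other library, and cluster 2 with 464 and 3757. Within them the log2 ratio was 0.04 (-0.37 to 0.41) in cluster 1 and 0.45 (0.27 to 0.65) in cluster 2. For CA1-like nuclei it was -0.31 (-0.48 to -0.14) in cluster 7, 0.51 (-0.70 to 1.36) in cluster 8, -0.04 (-0.28 to 0.20) in cluster 17 and -0.66 (-0.85 to -0.48) in cluster 25. In CA2-like nuclei 31.3 CPM faced 17.1 (-0.86, -1.42 to -0.35), and in astrocyte-like nuclei 83.6 faced 72.4 (-0.21, -0.37 to -0.05). Ratios above 0 with an interval clear of it were found in radial glia-like nuclei (37.1 and 70.3 CPM, 0.92, 0.39 to 1.46), endothelial-like nuclei (0.76, 0.21 to 1.35) and cycling progenitor-like nuclei (102.1 and 144.7 CPM, 0.50, 0.34 to 0.66). In the last class the ratio was 0.58 (0.40 to 0.77) in cluster 31, the deep cluster with more mature oligodendrocyte markers in the labelled knockout library, and 0.29 (-0.03 to 0.62) in cluster 16. All of these are below the 2.89 of committed precursor-like nuclei. The lowest control level was in oligodendrocyte-like nuclei, at 1.71 CPM, below microglia-like nuclei at 5.68 CPM, and in the labelled knockout library the same class ranked next after committed precursor-like and Cajal-Retzius-like nuclei.

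Free RNA released from broken cells can put UMIs into droplets of other types. Microglia-like nuclei are outside the Emx1 lineage and served as the background. In the labelled knockout library 1499 such nuclei, with a median of 1730 UMIs, had 0 Gm597 UMIs, 2 of Dkk2 and 11 of Pknox2. Their shares of nuclei with a UMI were 0% for Gm597, with 3 of the nuclei (0.200%) as the upper limit for a count of 0, 0.133% for Dkk2 and 0.734% for Pknox2. A calculation from mature oligodendrocyte marker UMIs, and the ratio of each gene to those markers in oligodendrocyte-like nuclei, gave 12.4, 14.9 and 64.3 UMIs for these nuclei, several times the counts found. For Gm597 it also gave more than was found in committed precursor-like nuclei (43.1 against 1), dentate granule-like nuclei (30.6 against 2) and cycling progenitor-like nuclei (29.8 against 21), so it does not serve as an estimate of free RNA. The control share of Pknox2 in oligodendrocyte-like nuclei, 1.27%, stood beside 0.993% (0.557 to 1.63) in control microglia-like nuclei, at median depths of 8120 and 2139 UMIs. Whether these few control UMIs are background was not tested.

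The genes of the related pathways were taken from 3 lists. Of 28 Dickkopf and Wnt genes other than Dkk2, 10 had enough counts in oligodendrocyte-like nuclei, 0 were at least 2-fold higher and 1 was lower in the labelled knockout library. That gene was Rnf43, a ubiquitin ligase that removes Wnt receptors, with 324 and 129 UMIs (-1.07, -1.38 to -0.78), in a class where 0.951% of all genes were at least 2-fold lower. The median log2 ratio over the 16 genes with at least 20 UMIs was -0.20, beside -0.09 over all genes. The co-receptor Lrp6 was at -0.24 (-0.42 to -0.05) and Tcf7l2, a transcription factor of the pathway, was at -0.19 (-0.27 to -0.12). Of 17 TALE homeobox genes other than Pknox2, 5 had enough counts and 0 passed the limit in either direction, with a median of 0.14 over 9 genes. Of all genes in the class, 2.16% passed it upward and 0.951% downward, so counts of 0 among 10 or 5 do not set the lists apart. The closest relative, Pknox1, was lower, with 405 and 186 UMIs (-0.87, -1.13 to -0.62). In committed precursor-like nuclei it had 116 and 42 UMIs (-1.32, -1.88 to -0.81), the only list member past the limit there other than Capicua targets, where 0.225% of all genes were at least 2-fold lower. Of the PBX and MEIS partners, Pbx3 was at 0.81 (0.67 to 0.95), Meis2 at 0.72 (0.51 to 0.92) and Meis1 at -0.29 (-0.37 to -0.20).

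All 7 Capicua targets with enough counts were at least 2-fold higher in oligodendrocyte-like nuclei of the labelled knockout library, out of a list of 15. They were Shc3 (6.02), Etv5 (5.29), Etv4 (4.65), Spred3 (3.37), Etv1 (2.17), Spred1 (1.25) and Spred2 (1.08), and the list's median was 2.17 over 11 genes. Shc3, Etv5 and Etv4 had 16, 12 and 12 control UMIs, and Spred3 and Spred2 were under 10 CPM in control nuclei of both clusters. These genes met the minimum only in the labelled knockout library, so their higher level follows in part from the filter. Spry4 had 3 and 24 UMIs, below the minimum. In committed precursor-like nuclei 6 of 7 were higher, with a median of 2.24 beside 0.02 for all genes. Etv4 and Etv5, with 12 and 11 control UMIs there, were among those that again met the minimum only in the labelled knockout library. Shc3 and Spred3 were also low in the control. In sub-clusters 4, 5 and 6, which held most control nuclei of that class, Shc3 had 10, 2 and 2 control UMIs and Spred3 had 12, 6 and 5. In precursor-like nuclei 1 of 12, Dusp6, was higher, with a median of 0.10 beside 0.04. The shares of all genes at least 2-fold higher were 2.16% in oligodendrocyte-like, 1.11% in committed precursor-like and 0.147% in precursor-like nuclei.

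**Figure D5:**
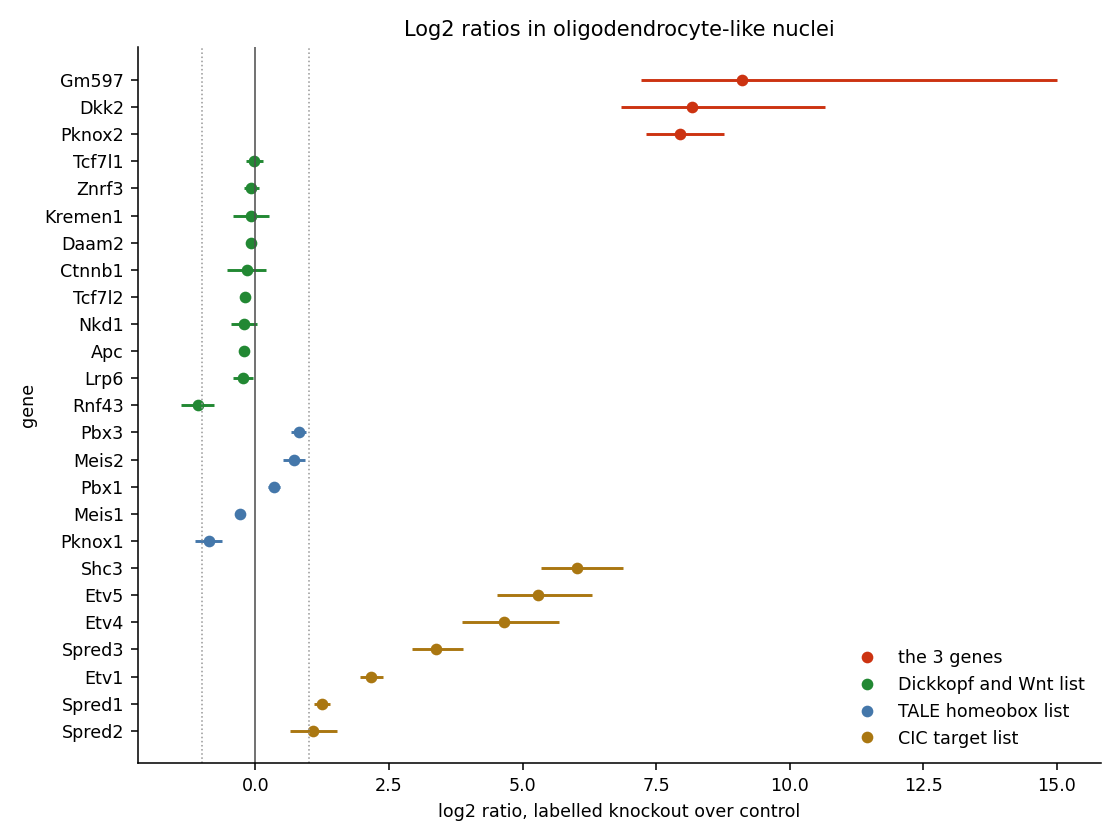
Log2 ratio of the labelled knockout library over the control in oligodendrocyte-like nuclei for Gm597, Dkk2 and Pknox2 (red) and for the genes of 3 lists with enough counts, Dickkopf and Wnt (green), TALE homeobox (blue) and Capicua targets (ochre). Lines are exact conditional binomial 95% intervals, dotted lines mark 2-fold, and 7 Capicua targets lie beyond it upward and Rnf43 downward.

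Genes with the most similar pattern were found by Pearson's r of log2(CPM + 1) over 32 sums, 16 classes in 2 libraries, which share libraries and depth. Nearest to Gm597 were Gm50314 (r = 0.81), Dnah8 (0.79), Gm16233 (0.79), A330072L02Rik (0.76) and Gm20619 (0.75). Gm597 had at most 4 UMIs in any sum but those of oligodendrocyte-like and cycling progenitor-like nuclei of the labelled knockout library. Its r thus rests largely on the level that chose the gene, and Spearman's rho shared 0 of these 5. In oligodendrocyte-like nuclei Dnah8 had 40 and 414 UMIs and Gm20619 had 24 and 547. Nearest to Dkk2 was Clic5 (0.86), with 21 and 250 UMIs, followed by Gipr (0.74), Ret (0.68), Dpp4 (0.66) and Gm10389 (0.66). Ret, Dpp4 and Gm10389 had at most 1 UMI in oligodendrocyte-like nuclei, so their likeness lies in the other classes. Nearest to Pknox2 were Glrb (0.68), Pard6g (0.66), Spats2l (0.66), Macroh2a2 (0.65) and Ranbp17 (0.65). Glrb, the beta subunit of glycine receptors, had 1152 and 2173 UMIs in oligodendrocyte-like nuclei.

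Of the 18 neighbours, the 3 nearest annotated genes on each side of each gene, 8 had enough counts in oligodendrocyte-like nuclei and none passed the limit, which 2.16% of all genes passed upward and 0.951% downward, so a count of 0 among 8 does not set them apart. Another 4 had at most 1 UMI in all and no ratio. The log2 ratios of the others lay between -0.47 (Ei24) and 0.86 (Slc37a2), except that of Gm29865. Gm29865, a long non-coding gene next to Dkk2, had 1 and 21 UMIs (4.09, 2.01 to 10.01), under the minimum of 50. Phf3, beside Gm597, was at -0.27 (-0.36 to -0.17), and Fez1, beside Pknox2, was at -0.41 (-0.53 to -0.30). No annotated gene overlapped Gm597 or Dkk2. Pknox2 overlapped 2 counted genes on the opposite strand, Gm3896 with 0 and 9 UMIs and Gm48716 with 0 and 0. Whether the counting used strand is not given in the sources used here.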

How the data were processed

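The deposited values are UMI counts, not normalized, for each gene in each nucleus. Per the submitters' processing notes the authors used Cell Ranger 8.0.1 and mm39. Annotation used here for neighbours, overlaps and Y-linked genes was for GRCm38, so no gene positions are given from it. Nuclei with under 500 genes or over 5% mitochondrial UMIs were left out, as were doublets called with Scrublet in scanpy 1.11.5 (3277 control, 2474 labelled knockout). Both libraries were clustered together in Python 3.11.15 (leidenalg 0.10.2) from 3000 variable genes without the 3 genes, 30 components, 15 neighbours and resolution 1, into 38 clusters. Clusters were named "-like" from 22 marker sets (at least 3 markers raised, mean log2 fold at least 0.5, a minimum set after the clusters were seen). UMIs were summed per library and class, and a log2 ratio adds 0.5 UMI to each sum. Intervals are exact Poisson, conditional binomial and Clopper-Pearson at 95%, and a count of 0 uses a floor of 3. They cover counting error only. The depth behind a class is its UMI total, from which CPM follow.

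For sex, nuclei with 2 or more Xist UMIs and none of 4 Y-linked genes counted as female, and those with 1 or more Y-linked UMIs but none of Xist as male. The genes named are the 3 genes, the next 5 by ratio, the 5 most alike, up to 6 of each list past the 2-fold limit, the 3 neighbours on each side and Cic; Pex5l, Lrp6, Tcf7l2, Meis1, Meis2, Pbx3, Pknox1, Spry4, Dusp6 and Spred2 were named after their values were seen. The members and lists were chosen with earlier results of these data known. The ratio, the intervals and the 2-fold count were tested on simulated data. These were independent Poisson sums, so they do not cover the uneven spread of UMIs between nuclei or differences between mice. The genes changed in them had more expected control UMIs than the 3 genes had.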

Additional observations from a re-analysis of the deposited data

Results flagged for a closer look

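The 3 genes were higher in oligodendrocyte-like nuclei of the labelled knockout library, and 7 values for other classes went the opposite way, with a 95% counting interval wholly below 0. For Dkk2 these were CA1-like nuclei, with a log2 ratio of -1.30, and inhibitory-like nuclei, which are outside the Emx1 lineage, with -1.32. For Pknox2 they were CA2-like nuclei (-0.86), dentate granule-like nuclei (-0.43), CA1-like nuclei (-0.24), immature dentate granule-like nuclei (-0.21) and astrocyte-like nuclei (-0.21). Most CA1-like and dentate granule-like nuclei lay in different clusters in each library. Within clusters the log2 ratio of Pknox2 was 0.04 (-0.37 to 0.41) and 0.45 (0.27 to 0.65) in the 2 dentate granule-like clusters, the second with an interval clear of 0 and opposite to the class value, and between -0.66 and 0.51 in the 4 CA1-like clusters. With 1 library per group, the difference between cell types was not tested.

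Dkk2 was also higher in a cluster that got no name from its markers and entered no comparison of classes. Cluster 29 had 13 Dkk2 UMIs in 88 control nuclei and 65 in 143 nuclei of the labelled knockout library, with a log2 ratio of 1.25 (0.42 to 2.28). These UMIs came from 5 and 15 nuclei. Other unnamed clusters went the opposite way, with 282 and 77 UMIs in cluster 15, 62 and 4 in cluster 9 and 57 and 26 in cluster 33. All unnamed nuclei together had 436 and 189 UMIs (-0.93, -1.19 to -0.69).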

How the results depend on the processing

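No paired analysis was possible because each group had 1 library, and no replicate could be left out. Of 128 values under other settings, 82 stayed within the counting interval or within 1.5 times the count, and 46 moved. No ratio whose interval lay clear of 0 changed sign. That of Pknox2 in precursor-like nuclei, whose interval includes 0, was -0.05 as reported and 0.03 in female nuclei. Over 13 settings the log2 ratio in oligodendrocyte-like nuclei ranged from 5.84 to 9.19 for Gm597, from 4.27 to 8.81 for Dkk2 and from 2.37 to 10.69 for Pknox2. For Pknox2 it ranged from 2.22 to 3.59 in committed precursor-like nuclei and from -0.11 to 0.03 in precursor-like nuclei. The median-of-ratios factors, which are subtracted from the log2 ratios, were -0.07 in oligodendrocyte-like nuclei and 0.05 in each of the other 2 classes.

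With called doublets kept and the clustering repeated, the log2 ratio was 2.37 for Pknox2 and 4.27 for Dkk2 in oligodendrocyte-like nuclei. It was 2.22 for Pknox2 in committed precursor-like nuclei. The share of control oligodendrocyte-like nuclei with a UMI was then 24.7% for Pknox2 and 2.23% for Dkk2, and in the labelled knockout library it was 71.4% for Pknox2 and 23.5% for Gm597. The control share of Pknox2 in committed precursor-like nuclei was 46.6%. The upper bins held 67.1% of Pknox2 and 97.4% of Dkk2 UMIs. The cause was not tested.

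Thinned to 2000 UMIs, the log2 ratio of Gm597 was 5.84 with the control at the floor of 3 UMIs (interval from 5.52), and it was 2.60 for Pknox2 in committed precursor-like nuclei. The shares of oligodendrocyte-like nuclei were 0% and 11.1% for Gm597, 8.90% for Dkk2 in the labelled knockout library, and 0.340% and 43.8% for Pknox2. In committed precursor-like nuclei they were 15.7% and 60.5% for Pknox2. The upper bins held 97.1% of Gm597, 97.2% of Dkk2 and 57.1% of Pknox2 UMIs.

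In female nuclei the log2 ratio was 7.09 for Gm597, 6.76 for Dkk2 and, in committed precursor-like nuclei, 3.59 for Pknox2. Their shares in the labelled knockout library were 11.3% for Dkk2 and 73.3% for Pknox2, with 30.4% and 83.7% for Pknox2 in committed precursor-like nuclei of the control and the other library. The upper bins held 97.3% of Dkk2 and 75.1% of Pknox2 UMIs. In male nuclei the log2 ratio of Pknox2 in committed precursor-like nuclei was 2.64, the control share of Gm597 was 0%, that of Dkk2 in the labelled knockout library was 17.5%, and the upper bins held 67.8% of Pknox2 UMIs.

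Subtracting the microglia-like level gave 10.69 for Pknox2 in oligodendrocyte-like nuclei. The upper share of Pknox2 was 74.8% with bounds set within each library and 72.1% with sub-clusters. The count of genes at least 2-fold apart, 252, was 627 (350 higher, 277 lower) at 20 UMIs with no CPM minimum, 5235 from 1 UMI, where the lower genes outnumbered the higher (2507 and 2728), and 57 (56 and 1) at 4-fold. Of the 5 most alike genes, Spearman's rho shared 0 for Gm597, 1 for Dkk2 and 2 for Pknox2, and log2(CPM + 10) shared 2 for Dkk2 and 2 for Pknox2. Where control sums were of 1 to 3 UMIs, depth limited the upper end of the ratio.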
